A study of Homo sapiens with 6 samples.

Results

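The nuclear pore and transport receptor genes were taken as every gene whose platform symbol, alone on its probe set, was NUP followed by digits, KPNA with a digit, KPNB1, or an IPO, TNPO or XPO symbol with a number, leaving out XPO5. This gave 47 genes of the 19775 named singly on the array: 26 with NUP symbols, 7 KPN, 7 IPO, 3 TNPO and 4 XPO. Each gene was read at the probe set with the brightest mean over the 6 arrays, out of 133 probe sets for these genes. The symbols also took in relatives that are not pore subunits: NUP62CL and NUP210L, the pseudogene NUP210P1, and the divergent noncoding transcripts NUP133-DT and NUP50-DT. The arrays held total RNA of L428, an established Hodgkin lymphoma line, 9 h after nucleofection with an inhibitor of miR-9 made of locked nucleic acid (LNA, 3 arrays) or with a scrambled LNA (3 arrays). Both groups share the line, the nucleofection and the time, and no untransfected cells or second line are part of the comparison. The labels number the replicates without saying whether they were separate cultures, so the p-values measure the spread between these samples, which may be technical.

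The nuclear pore complex is a ring of nucleoporins through which all traffic between nucleus and cytoplasm passes. Scaffold nucleoporins build the outer and inner rings, and nucleoporins rich in phenylalanine-glycine (FG) repeats fill the channel. Importins and exportins carry cargo through it in a direction set by the small GTPase Ran: importin alpha reads the classical import signal and importin beta moves the complex, while exportins bind cargo together with Ran in the nucleus. Among cargoes, the RNA-binding protein HuR is imported by transportins (TNPO1, TNPO2), and the exportin XPO1 carries many proteins with leucine-rich export signals.

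The agent is directed against miR-9, and the labels do not give the arm or the sequence of the LNA. The RefSeq table (GRCh38.p14) holds 3 miR-9 loci, of which MIR9-1 lies on the minus strand of chromosome 1, and they give the same mature arms. Both arms are shown to identify the target of the inhibitor, with the seed (bases 2 to 8) in capitals, written 5′ to 3′.
hsa-miR-9-5p: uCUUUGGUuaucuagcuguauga
hsa-miR-9-3p: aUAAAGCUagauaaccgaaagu
The first arm spans chr1:156420392-156420414 and the second chr1:156420354-156420375. The seeds differ. Seed sites in the transport genes were not analysed here.

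All values are log2 RMA expression as deposited. Differences are miR-9 LNA minus scrambled LNA, with a limma standard error (SE), and group means carry an SD (n = 3 arrays per group). The threshold is a limma adjusted p under 0.05. A brighter probe set does not mean a more abundant mRNA, so levels are compared between arrays and not between genes. Array medians lay between 7.10 and 7.15. The 8 Hodgkin markers on the array were read at 9.46 to 12.70, while B cell markers lay at 6.73 to 7.44, T and NK cell markers at 6.86 to 7.28, myeloid markers at 6.71 to 7.21, erythroid markers at 7.11 to 7.43, and fibroblast and endothelial markers at 7.11 to 8.16. Scrambled replicate 1 stood apart from the other 5 arrays: its 90th percentile was 9.28 against 9.45 to 9.57, and the spike-in dap read 10.19 there against 8.06 to 8.67.

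In the deposited values most nuclear pore and transport receptor genes lay slightly higher after miR-9 inhibition, but no single gene passed the threshold. Of the 47 genes, 44 passed the level filter (a mean of at least 7.11). Of these 44, 41 had a higher and 3 a lower mean with the miR-9 LNA, against 70.0% higher among the 12367 genes tested. Their median log2 difference was 0.21, from -0.07 (IPO13) to 0.35 (NUP98), and the median of all genes tested was 0.08. Limma called 0 of the 44 at the threshold, with a lowest adjusted p of 0.296, and 0% of all genes. At an unadjusted p under 0.05 limma gave 21 genes higher and 0 lower, against 17.4% and 0.598% of all genes. For 18 genes every inhibitor array read above every scrambled array, and the reverse held for 0, against 22.0% and 3.83% of all genes. An exact permutation test of 3 against 3 arrays gives no p below 0.1.

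**Figure D1:**
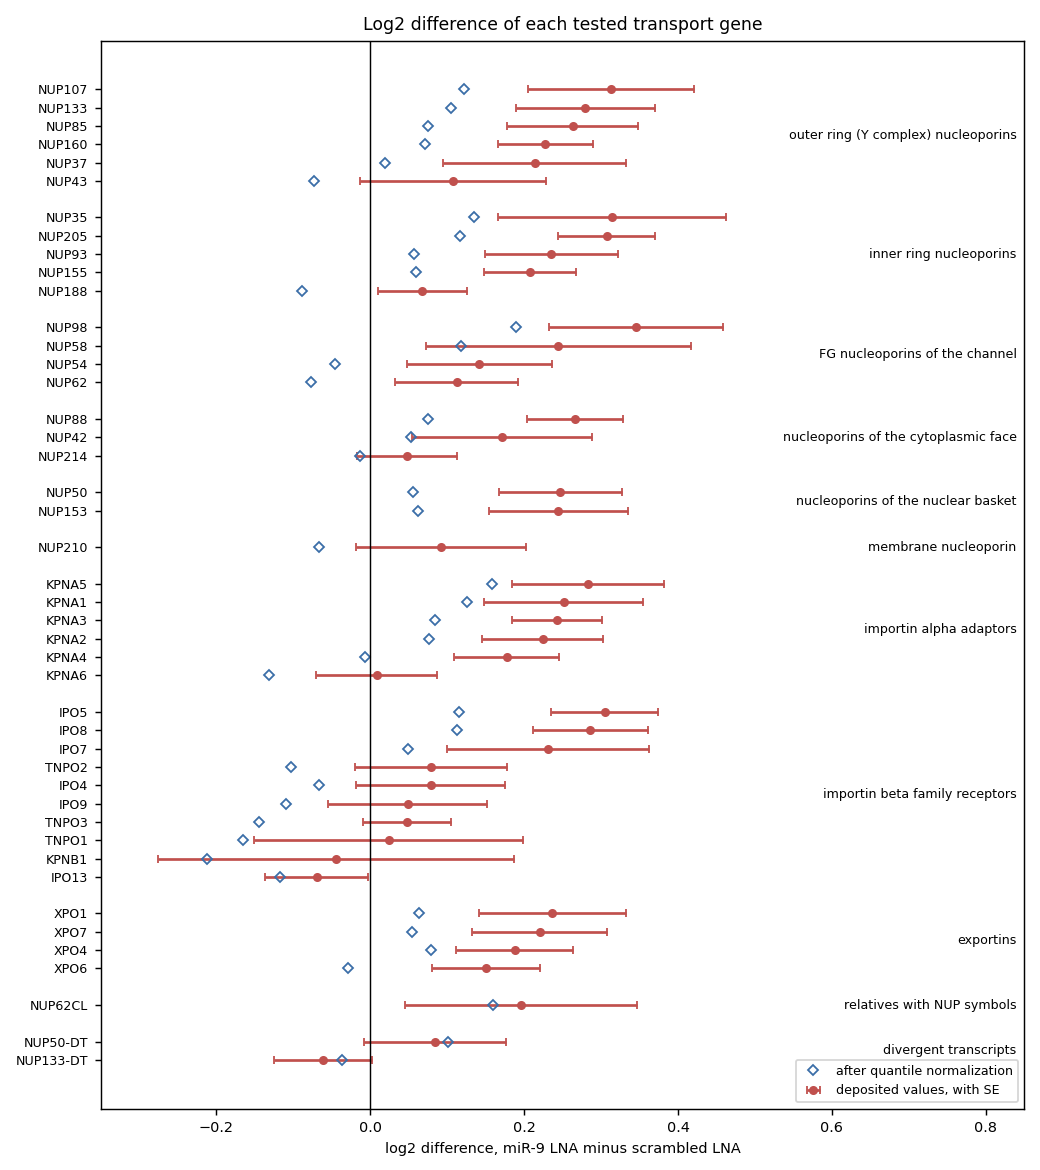
Log2 difference (miR-9 LNA minus scrambled LNA, x axis) of the 44 tested genes in their structural classes, with red points and bars for the deposited values and their limma SE, and blue diamonds for the same difference after quantile normalization. Of the 44 red points 41 lie above 0, and of the diamonds 27 do.

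Over all genes tested, these shares were greater where the probe sets were brighter. With all genes tested cut into 5 equal classes by level, the brightest held 22 of the 44 genes. In it 96.5% of all genes lay higher, with a median of 0.20, and the 22 transport genes had a median of 0.23 with 21 higher. In the next class, 92.0% of all genes lay higher with a median of 0.17, and the 15 transport genes there had a median of 0.23 with 15 higher. Unadjusted limma p-values under 0.05 with a higher mean were found for 33.3% of all genes and 11 of the 22 transport genes in the brightest class, and for 33.0% and 9 of the 15 in the next. Groups without overlap, higher, made up 37.0% of all genes and 11 of the 22 in the brightest class, and 36.7% and 7 of the 15 in the next. After quantile normalization, which forces the arrays onto the same distribution, 27 of the 44 genes lay higher and 17 lower, with a median of 0.06, against 49.6% of all genes higher. Cyclic loess normalization also gave 27 and 17, against 48.0% of all genes higher. At an unadjusted p under 0.05 limma then gave 0 of the 44 genes under either normalization, against 4.22% of all genes after quantile normalization. The groups still did not overlap after quantile normalization for NUP98 (0.19) and NUP160 (0.07), against 5.40% of all genes in that direction.

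**Figure D2:**
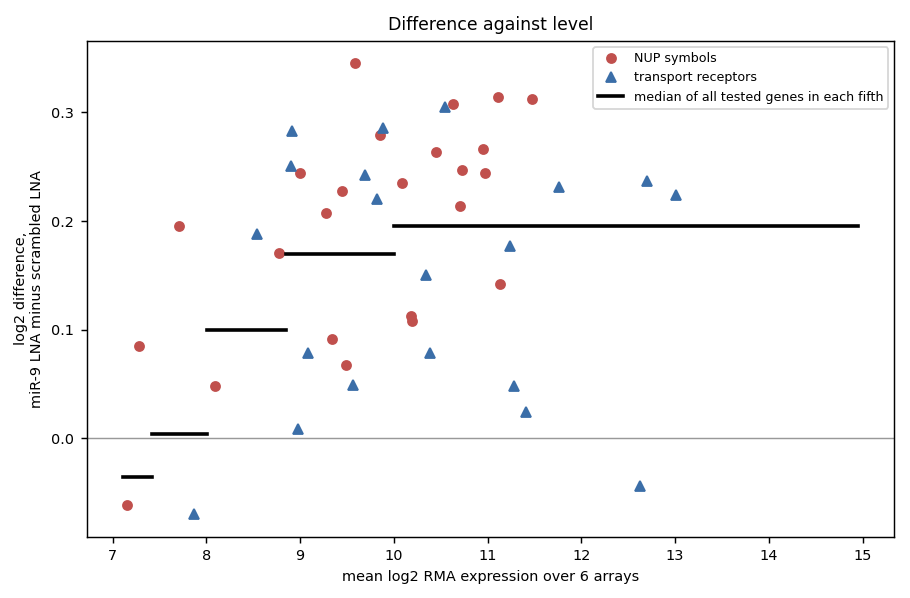
Log2 difference (y axis) of the tested genes against their mean log2 RMA expression over the 6 arrays (x axis), with red circles for NUP symbols, blue triangles for transport receptors and black bars for the median of all tested genes in each of the 5 level classes. The bars climb from -0.04 to 0.20, and most of the genes lie in the upper 2 classes, around the bars there.

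Scrambled replicate 1 was the lowest of the 6 arrays for 29 of the 44 genes, against 41.5% of all genes, and scrambled replicate 3 for 11. Without scrambled replicate 1 the median of the 44 genes was 0.16, with 37 higher and 7 lower, against 30.0% of all genes lower, and limma gave 13 genes higher at an unadjusted p under 0.05, against 12.9%. Without miR-9 LNA replicate 1 limma also gave 13, against 9.45% of all genes. Without scrambled replicate 3 the lower genes numbered 5, against 31.1% of all genes. The part of the spike-in and intensity spread of scrambled replicate 1 in the differences was not tested. Between same-numbered arrays the median difference of the 44 genes was 0.34 in the first pair, 0.10 in the second and 0.15 in the third, where all genes tested gave 0.14, 0.04 and 0.06. Of the 44 genes, 30 were higher in all 3 pairs, against 44.9% of all genes. With the replicate number as a block, limma gave 25 genes higher and 0 lower at an unadjusted p under 0.05, against 25.9% and 0.784% of all genes.

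**Figure D3:**
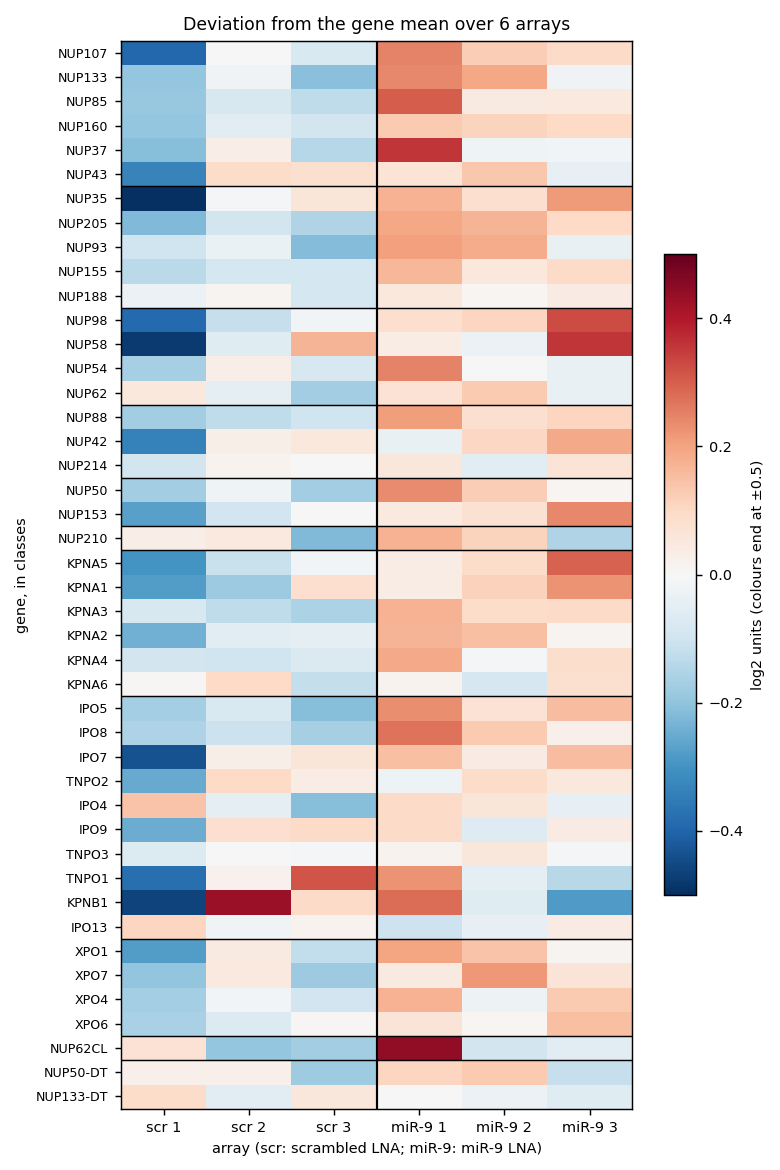
Deviation of each tested gene from its own mean over the 6 arrays, in log2 units, with genes as rows in their classes and arrays as columns (scrambled LNA left, miR-9 LNA right). The column of scrambled replicate 1 is mostly blue, and KPNB1 and TNPO1 run against the genes around them on several arrays.

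The outer ring (Y complex) subunits, which form the scaffold on both faces of the pore, all lay higher with the miR-9 LNA. The 6 genes had a median difference of 0.25, and limma gave 4 at an unadjusted p under 0.05 (17.4% of all genes tested). All 6 were read at levels in the upper 2 of the 5 classes, where 92.0% and 96.5% of all genes lay higher. NUP160 read 9.57, 9.55 and 9.54 on the miR-9 LNA arrays and 9.25, 9.38 and 9.35 on the scrambled arrays. The groups were separate, and the miR-9 LNA arrays were nearly level with each other. Its difference was 0.23 ± 0.06 (limma adjusted p = 0.296). NUP85, which sits at the hub of the Y, read 10.75, 10.49 and 10.49 against 10.26, 10.37 and 10.32. Again no array crossed into the other group, with miR-9 LNA replicate 1 well above the rest, and the difference was 0.26 ± 0.09 (limma adjusted p = 0.296). NUP107 differed by 0.31 ± 0.11 and NUP133 by 0.28 ± 0.09, both without overlap. NUP37 (0.21 ± 0.12) and NUP43 (0.11 ± 0.12) overlapped between the groups, and NUP43 was at -0.03 without scrambled replicate 1. After quantile normalization 5 of the 6 outer ring genes lay higher, with a median of 0.07.

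Inner ring nucleoporins, which anchor the pore at the curved membrane and hold the channel proteins, showed a like pattern. The 5 genes had a median difference of 0.24, all higher, with 3 at an unadjusted limma p under 0.05 (17.4% of all genes tested). All 5 lay in the upper 2 of the 5 level classes, where 92.0% and 96.5% of all genes lay higher. In those classes 33.0% and 33.3% of all genes were higher at such a p. NUP205 had the smallest p of all the transport genes. It read 10.82, 10.80 and 10.73 with the miR-9 LNA and 10.41, 10.54 and 10.48 with the scrambled LNA. No array of a group came near the other group, and the SD within the groups was 0.05 and 0.06. Its difference was 0.31 ± 0.06, a fold of 1.24 (limma unadjusted p = 0.00149, adjusted p = 0.296). NUP155, a linker of the ring, read 9.44, 9.33 and 9.37 against 9.14, 9.19 and 9.19, again without overlap, and differed by 0.21 ± 0.06 (limma adjusted p = 0.296). NUP35 differed by 0.31 ± 0.15, and by 0.13 without scrambled replicate 1, which read 10.58 where the other scrambled arrays read 11.10 and 11.17. NUP93 differed by 0.24 ± 0.09. NUP188, the relative of NUP205, differed by 0.07 ± 0.06, with a 95% interval from -0.07 to 0.20. After quantile normalization 4 of the 5 inner ring genes lay higher.

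**Figure D4:**
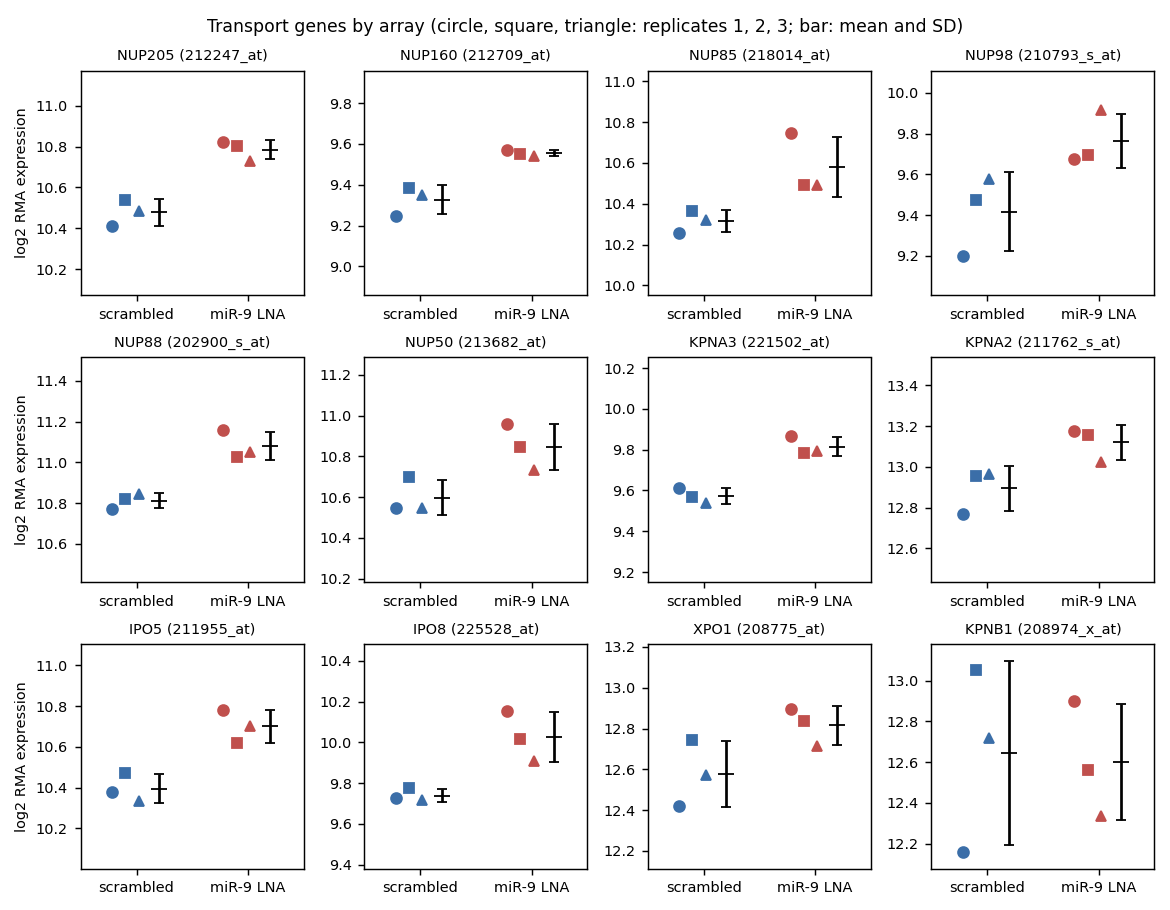
Log2 RMA expression (y axes, each spanning 1.1 log2 units) of 12 genes on each array, scrambled LNA in blue and miR-9 LNA in red, with circle, square and triangle for replicates 1, 2 and 3 and black bars for the mean and SD. Most of these genes were among the 2 of smallest p in their class. All but XPO1 and KPNB1 separate the groups, and KPNB1 spreads from 12.16 to 13.05 within the scrambled arrays.

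Among the FG nucleoporins of the channel, NUP98 showed the greatest difference of the 44 genes. NUP98 lines the pore with GLFG repeats, and its precursor also yields an outer ring subunit. It read 9.68, 9.70 and 9.92 with the miR-9 LNA and 9.20, 9.47 and 9.58 with the scrambled LNA. The groups did not overlap, but the third array of each group was its highest and the gap between the groups was small. The difference was 0.35 ± 0.11, a fold of 1.27 (limma adjusted p = 0.296), and 0.24 without scrambled replicate 1. The other NUP98 probe sets gave 0.10 (203194_s_at) and 0.16 (203195_s_at). NUP54, a partner of NUP62 and NUP58 in the central channel, read 11.37, 11.13 and 11.09 against 10.96, 11.16 and 11.05. These groups overlapped, and the difference was 0.14 ± 0.09 (limma adjusted p = 0.495), turning to -0.05 after quantile normalization. NUP58 differed by 0.24 ± 0.17 and NUP62 by 0.11 ± 0.08. NUP62 was at -0.08 after quantile normalization.

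On the cytoplasmic face, NUP88, which holds NUP214 at the pore, read 11.16, 11.03 and 11.05 with the miR-9 LNA and 10.77, 10.82 and 10.85 with the scrambled LNA. The groups lay clearly apart. The difference was 0.27 ± 0.06 (limma adjusted p = 0.296), while the dim second probe set 214192_at gave -0.05 ± 0.06. NUP42, a partner of the mRNA export factor GLE1, read 8.74, 8.88 and 8.96 against 8.44, 8.80 and 8.83, with overlap and a low scrambled replicate 1. It differed by 0.17 ± 0.12 (limma adjusted p = 0.506), and by 0.04 without that array. NUP214, the docking site for export complexes, differed by 0.05 ± 0.07.

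Both genes of the nuclear basket lay higher without overlap, against 22.0% of all genes tested. Both fell in the brightest of the 5 level classes, where 96.5% of all genes lay higher and 37.0% did so without overlap. NUP50, a cofactor that helps release import cargo, read 10.96, 10.84 and 10.73 with the miR-9 LNA and 10.55, 10.70 and 10.55 in the scrambled group, a difference of 0.25 ± 0.08 (limma adjusted p = 0.296). NUP153, the FG protein that ties the basket to the ring, read 11.03, 11.05 and 11.22 against 10.70, 10.88 and 10.98, a difference of 0.24 ± 0.09 (limma adjusted p = 0.315). In each gene the highest scrambled array came within 0.1 of the lowest miR-9 LNA array. After quantile normalization NUP50 and NUP153 differed by 0.06 and 0.06. Their dimmer tested probe sets all overlapped between the groups. Those of NUP50 ran from 0.07 ± 0.14 (218294_s_at) to 0.25 ± 0.10 (222583_s_at). Those of NUP153 gave 0.07 ± 0.10 (1559064_at) and 0.08 ± 0.13 (239948_at). NUP210, a membrane protein of the pore, read 9.52, 9.45 and 9.19 against 9.38, 9.39 and 9.12. Its groups overlapped, the third array of each was lowest, and the difference was 0.09 ± 0.11 (limma adjusted p = 0.703). The dimmer NUP210 probe sets ran from -0.04 ± 0.07 (212316_at) to 0.23 ± 0.08 (213945_s_at, without overlap).

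The relatives with NUP symbols were dim. NUP62CL read 8.15, 7.62 and 7.65 with the miR-9 LNA and 7.78, 7.51 and 7.54 in the scrambled group, a difference of 0.20 ± 0.15 (limma adjusted p = 0.550) that rests on a high miR-9 LNA replicate 1. NUP210L, the dimmest of the 47, read 6.48, 6.65 and 6.56 against 6.63, 6.54 and 6.64. With NUP210P1 (0.001 ± 0.05) and IPO11 (-0.03 ± 0.05), NUP210L (-0.04 ± 0.06) made up the 3 genes below the level filter. These values come from a limma fit without the filter.

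Importin alpha adaptors read the classical import signal and fall into subfamilies of KPNA2, of KPNA3 and KPNA4, and of KPNA1, KPNA5 and KPNA6. All 6 adaptors had a higher mean with the miR-9 LNA, with a median of 0.23, and limma gave 5 at an unadjusted p under 0.05 (17.4% of all genes tested). These adaptors too lay in the upper 2 level classes, where 92.0% and 96.5% of all genes lay higher. KPNA3 read 9.87, 9.79 and 9.79 on the miR-9 LNA arrays and 9.61, 9.57 and 9.54 on the scrambled arrays. Its groups lay clearly apart, and here scrambled replicate 1 was the highest of its group. The difference was 0.24 ± 0.06 (limma adjusted p = 0.296), and 0.26 without scrambled replicate 1. The dimmer KPNA3 probe set 221503_s_at overlapped between the groups and gave 0.09 ± 0.13. It was at -0.03 without scrambled replicate 1 and at -0.02 after quantile normalization. KPNA5 read 8.95, 9.00 and 9.21 against 8.61, 8.80 and 8.90, a difference of 0.28 ± 0.10 (limma adjusted p = 0.303). KPNA2, the brightest of the 47, read 13.18, 13.16 and 13.02 against 12.77, 12.95 and 12.96, a difference of 0.22 ± 0.08 (limma adjusted p = 0.306). Neither KPNA5 nor KPNA2 overlapped, and in both the margin between the groups was under 0.1. The second KPNA2 probe set 201088_at gave 0.09 ± 0.09, and -0.07 after quantile normalization. KPNA4 differed by 0.18 ± 0.07 and KPNA1 by 0.25 ± 0.10. KPNA6, the close relative of KPNA1 and KPNA5, differed by 0.01 ± 0.08, with a 95% interval from -0.18 to 0.19, though its probe set 212103_at gave 0.22 ± 0.10. After quantile normalization 4 of the 6 adaptors lay higher, with a median of 0.08.

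The importin beta family, whose members move cargo through the pore, held both signs. Of its 10 tested genes 8 had a higher and 2 a lower mean, with a median difference of 0.06. Limma gave 2 at an unadjusted p under 0.05 (17.4% of all genes tested). IPO5, an importer of ribosomal proteins and histones, read 10.78, 10.62 and 10.70 with the miR-9 LNA and 10.38, 10.47 and 10.34 with the scrambled LNA. The groups did not overlap, and no array stood out. The difference was 0.31 ± 0.07 (limma unadjusted p = 0.00272, adjusted p = 0.296), and the probe set 211954_s_at gave 0.29 ± 0.07. The still dimmer IPO5 probe sets gave 0.15 ± 0.06 (211953_s_at), 0.11 ± 0.06 (211952_at) and 0.03 ± 0.06 (236906_x_at, with overlap). IPO8, which is known to bind Argonaute proteins, read 10.15, 10.01 and 9.91 against 9.73, 9.77 and 9.72, a difference of 0.29 ± 0.08 (limma adjusted p = 0.296). The dimmer IPO8 probe set 205701_at gave 0.11 ± 0.14, with overlap. IPO7, the relative of IPO8, differed by 0.23 ± 0.13, and by 0.07 without scrambled replicate 1. IPO13, which carries cargo both ways, read 7.77, 7.83 and 7.91 against 7.98, 7.85 and 7.89. It overlapped between the groups and differed by -0.07 ± 0.07 (limma adjusted p = 0.629).

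At their brightest probe sets the other importin beta relatives gave small differences. IPO4 differed by 0.08 ± 0.10, IPO9 by 0.05 ± 0.10, TNPO2 by 0.08 ± 0.10 and TNPO3, an importer of splicing factors, by 0.05 ± 0.06. The 95% interval for TNPO3 at this probe set ran from -0.09 to 0.18. The dimmer TNPO3 probe sets gave 0.23 ± 0.10 (212317_at) and 0.13 ± 0.10 (214550_s_at). After quantile normalization 3 of the 10 importin beta genes lay higher and 7 lower, with a median of -0.11. Those higher were IPO5, IPO8 and IPO7. Without scrambled replicate 1, 5 of the 10 lay higher and the median was -0.0008. No test compared this class with the others.

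KPNB1 is importin beta itself and TNPO1 the transportin of HuR and other RNA-binding proteins, and both were chosen for description after their values were seen. At its brightest probe set 208974_x_at, KPNB1 read 12.90, 12.56 and 12.34 with the miR-9 LNA and 12.16, 13.05 and 12.72 with the scrambled LNA. The scrambled arrays enclosed all the miR-9 LNA arrays, and the difference was -0.04 ± 0.23, with a 95% interval from -0.58 to 0.50. The other 5 KPNB1 probe sets lay between 0.12 (208975_s_at) and 0.32 (213507_s_at). TNPO1 at 221829_s_at read 11.63, 11.36 and 11.27 against 11.04, 11.43 and 11.73, a difference of 0.02 ± 0.17. Its scrambled arrays again enclosed the miR-9 LNA arrays. Of the 7 other TNPO1 probe sets that were tested, 6 gave 0.10 to 0.27 and 1556116_s_at gave -0.14. Without scrambled replicate 1 the brightest probe sets of KPNB1 and TNPO1 were at -0.29 and -0.16.

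**Figure D5:**
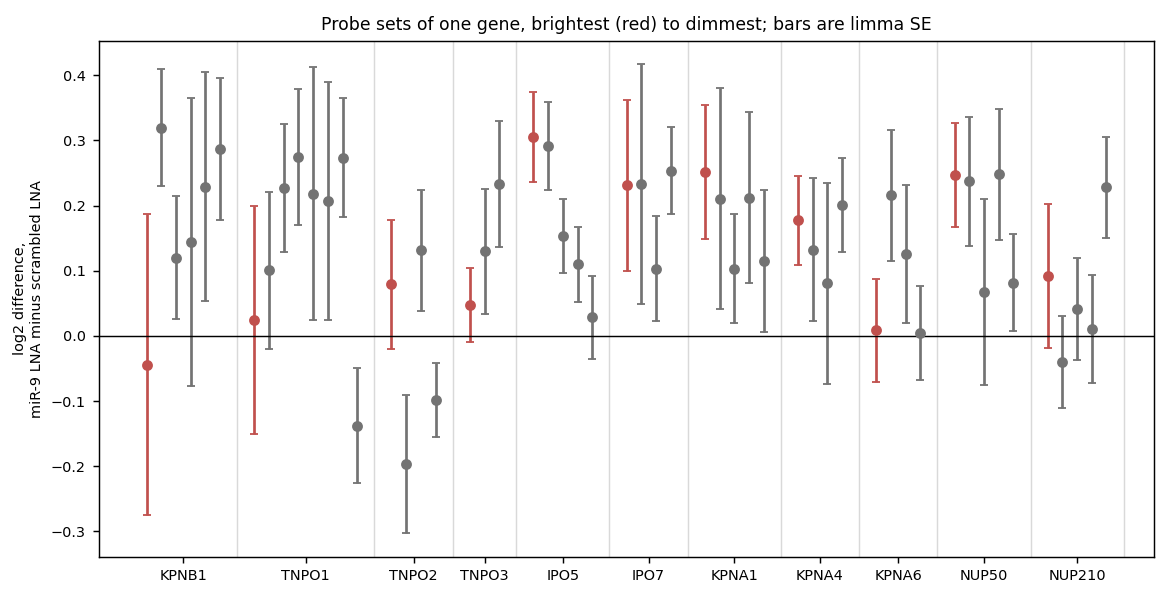
Log2 difference (y axis, with limma SE) of every tested probe set of 11 genes, ordered within each gene from the brightest (red) to the dimmest (grey). In KPNB1 and TNPO1 the brightest probe set lies below most of the others, while in IPO5 it is the highest.

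Across the 47 genes, 32 had more than 1 tested probe set. In 21 of these 32 all tested probe sets lay higher with the miR-9 LNA, against 51.2% of the 5826 genes with more than 1 tested probe set. In 0 all lay lower, and in 11 the signs were mixed. Of 116 tested probe sets of the transport genes, 102 lay higher and 14 lower, against 66.9% of all 27307 tested probe sets higher. No gene had probe sets of opposite sign that each reached an unadjusted limma p under 0.05. TNPO2 was among the mixed genes, with 0.08 at 221506_s_at, 0.13 at 226428_at, -0.20 at 221507_at and -0.10 at 215844_at.

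All 4 exportins had a higher mean with the miR-9 LNA, with a median difference of 0.20, and limma gave 3 at an unadjusted p under 0.05 (17.4% of all genes tested). In the 3 level classes these exportins fell into, 80.5% to 96.5% of all genes lay higher, with medians of 0.10 to 0.20. XPO7, an exportin of broad cargo, read 9.86, 10.03 and 9.88 with the miR-9 LNA and 9.62, 9.86 and 9.63 with the scrambled LNA. The lowest miR-9 LNA array met the highest scrambled array, so the groups just overlapped. The difference was 0.22 ± 0.09 (limma adjusted p = 0.330), while the dimmer XPO7 probe sets gave 0.01 ± 0.10 (208459_s_at) and -0.14 ± 0.10 (240168_at). XPO1 read 12.90, 12.84 and 12.71 against 12.42, 12.74 and 12.57, with scrambled replicate 2 inside the miR-9 LNA range. It differed by 0.24 ± 0.10 (limma adjusted p = 0.331), and by 0.16 without scrambled replicate 1. The dimmer XPO1 probe sets differed in sign, with 0.10 ± 0.12 (235927_at) and -0.07 ± 0.06 (244012_x_at). XPO4 differed by 0.19 ± 0.08 and XPO6, the exporter of actin, by 0.15 ± 0.07. XPO6 alone of the 4 did not overlap between the groups. After quantile normalization the brightest probe sets of XPO1, XPO4 and XPO7 kept a higher mean, with 0.06, 0.08 and 0.05, and XPO6 was at -0.03.

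Other genes of nuclear transport, were listed for their function. Of 33 listed genes 27 were named singly on the array and tested. Of these 24 lay higher and 3 lower, against 70.0% of all genes higher, with a median of 0.18. Limma called 0 by adjusted p and gave 11 at an unadjusted p under 0.05, all higher, against 17.4% of all genes. The groups did not overlap for 12, all higher, against 22.0% of all genes. The median level of the 27 genes was 9.92, and these shares were greater among brighter genes. In the upper 2 of the 5 level classes, 33.0% and 33.3% of all genes were higher at an unadjusted limma p under 0.05. Groups without overlap, higher, made up 36.7% and 37.0% there. RANBP2, the large nucleoporin of the cytoplasmic filaments, read 11.60, 11.64 and 11.56 with the miR-9 LNA and 11.32, 11.42 and 11.29 with the scrambled LNA. The groups did not overlap, and the difference was 0.25 ± 0.06 (limma adjusted p = 0.296). SEH1L, a further Y complex subunit, differed by 0.32 ± 0.09, THOC1 of the mRNA export complex by 0.28 ± 0.08 and NDC1, which anchors the pore in the membrane, by 0.28 ± 0.08. None of these overlapped between the groups. TPR, the filament protein of the basket, lay lower by the smallest p of the 3, at -0.17 ± 0.22 (limma adjusted p = 0.728). Its scrambled arrays read 10.26, 11.10 and 10.77 around miR-9 LNA values of 10.87, 10.42 and 10.34. After quantile normalization 15 of the 27 genes lay higher and 12 lower. The lower genes of this list numbered 5 without scrambled replicate 1 and 5 without miR-9 LNA replicate 3, where 30.0% and 32.8% of all genes lay lower.

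In NUP133 and NUP50 the noncoding partner starts close by and runs the other way, so both transcripts of a pair share the DNA between their starts. That DNA is shown as 1 strand, in the direction of the nucleoporin gene (RefSeq, GRCh38.p14), from just inside the partner's start to just before the gene's start. Capitals mark matches to motifs searched on both strands. In NUP133 they are GGGCGG (read here as its reverse complement) and the CRE TGACGTCA, and in NUP50 the NRF1 core CGCATGCG and the ETS motif CCGGAAG.
NUP133: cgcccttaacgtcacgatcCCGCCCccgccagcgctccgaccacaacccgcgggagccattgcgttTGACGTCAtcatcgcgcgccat
NUP50: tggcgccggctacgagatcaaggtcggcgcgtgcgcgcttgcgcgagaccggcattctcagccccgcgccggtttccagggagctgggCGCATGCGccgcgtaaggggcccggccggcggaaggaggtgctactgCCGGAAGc
The first lies at chr1:229508342-229508429 on the minus strand (88 bases) and the second at chr22:45163782-45163924 on the plus strand (143 bases). NUP133-DT read 7.15, 7.13 and 7.09 with the miR-9 LNA and 7.25, 7.10 and 7.21 with the scrambled LNA, near the level filter. Its groups overlapped, and it differed by -0.06 ± 0.06 (limma adjusted p = 0.657) beside 0.28 ± 0.09 for NUP133. NUP50-DT read 7.39, 7.41 and 7.16 against 7.30, 7.30 and 7.10. It overlapped as well and differed by 0.08 ± 0.09 (limma adjusted p = 0.672) beside 0.25 ± 0.08 for NUP50. The difference within each pair was not tested.

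Promoter windows (250 bases before to 50 after a start) were found in the RefSeq table for 41 of the 47 genes, 39 of them protein-coding. A gene counted as holding a motif if any of its windows held it on either strand, and the share among all 15843 protein-coding genes with a window is given beside it. CCAAT was found in 21 of the 39 genes (53.8% against 42.1%) and GGGCGG in 21 (53.8% against 64.3%). The ETS motif CCGGAAG was found in 12 (30.8% against 16.5%), among them NUP35, NUP88, NUP107 and NUP160. CGCATGCG was found in 4, NUP62, IPO11, NUP50 and NUP107 (10.3% against 3.28%). TGACGTCA was found in 4 (10.3% against 3.00%), and the YY1 motif AAGATGGCG in 4, NUP205, NUP188, NUP88 and NUP160 (10.3% against 3.21%). The E-box CACGTG was found in 7 (17.9% against 10.9%) and TATAAA in 3 (7.69% against 12.4%). These matches describe the windows and are not binding data.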

How the data were processed

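Total RNA of 6 L428 samples was hybridized to Affymetrix HG-U133 Plus 2.0 arrays, and the deposited values are log2 RMA expression, with affy named in the submitters' processing notes; versions and any offset are not given in the sources used here. Of 54675 probe sets, 62 controls were left out. The 27307 with a mean at or above the median (7.11) were tested with limma 3.58.1 in R 4.3.3 (lmFit, eBayes, two-sided), with Benjamini-Hochberg adjustment over all of them. By the platform annotation 41091 probe sets had 1 symbol, 1801 several and 11721 none, and Entrez IDs placed all 47 genes in the RefSeq table (GRCh38.p14). Shares of all genes use the brightest probe set of each of 12367 genes.

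The genes and lists were chosen with earlier results of these data known. Per-array values are given for the 2 genes of smallest p in each class, the lower gene of smallest p in each class, and the brightest and dimmest gene. In the other transport list the 4 genes of smallest p and the lower gene of smallest p are named.

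Arrays were paired by the replicate numbers in the labels, which do not state that same-numbered arrays belong together. Deviations from group means correlated at 0.23, 0.19 and 0.63 between same-numbered arrays. Between arrays of unlike number the correlations ran from -0.43 to 0.17. These values do not establish the pairing. Alternatives covered the filter, normalization, variance model, array weights, replicate block, probe set rule and each array left out. The code was tested on simulated data. Protein sequences were not used here. Python 3.11.15 and matplotlib 3.10.9 made the plots.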

Additional observations from a re-analysis of the deposited data

How the results depend on the processing

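No probe set or transport gene passed the threshold under any alternative run. With the replicate block, 41 genes lay higher and 3 lower, and limma gave 25 higher genes at an unadjusted p under 0.05 (25.9% of all genes). XPO4 left that set, and XPO6, NUP58, NUP35, NUP42 and NUP62CL entered it. Of the other transport genes, 13 were higher at such a p with the block, against 11 without it. Quantile normalization gave 27 higher, 17 lower, a median of 0.056, 0 genes at an unadjusted p under 0.05 and 2 higher without overlap, with 15 higher and 12 lower other transport genes. Cyclic loess gave 27, 17, 0.046 and 0, with 3 higher and 1 lower without overlap, and 15 and 12 other genes. Lower genes numbered 5 without a filter, 1 with the filter at the 75th percentile, 7 with array weights and 5 with probe sets of neither suffix _s_at nor _x_at. The mean of all probe sets of a gene gave a median of 0.13 and 8 genes at an unadjusted limma p under 0.05. The shares of all genes for that count and for the cyclic loess overlap are not given here.

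Leaving out each array, higher genes ranged from 37 to 42, lower from 2 to 7 and the median from 0.16 to 0.23. Genes at an unadjusted limma p under 0.05 ranged from 13 to 18. The low of 13 came without miR-9 LNA replicate 1 and without scrambled replicate 1. There 9.45% and 12.9% of all genes were higher at such a p. Higher genes without overlap ranged from 21 to 26 and lower ones from 0 to 1. With fewer arrays in a group, separation by chance is more frequent. The counts without overlap therefore cannot be compared with the 18 found with all arrays. The shares of all genes for these counts, and for the other counts at such a p, are not given here. Other transport genes ranged from 22 to 25 higher and from 2 to 5 lower. Of 425 values of named genes under alternatives, 417 kept their direction and 8 reversed: NUP210 at -0.066 after quantile and -0.071 after cyclic loess normalization and -0.040 with probe sets of neither suffix, NUP54 at -0.046 after quantile and -0.053 after cyclic loess normalization, NUP88 at -0.053 with probe sets of neither suffix, and TPR at 0.026 without scrambled replicate 2 (from -0.39 to 0.026 over the arrays left out) and 0.042 with the mean of all probe sets. The cause was not tested. The number of arrays limits the precision.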
